A study of Mus musculus with 8 samples.

Results

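The genes described here are the 43 classical cadherins, non-clustered protocadherins and large cadherin family members of the mouse, out of 55450 genes in the deposited count tables. They were chosen by name: protein-coding genes whose symbol is Cdh or Pcdh followed by a number, Celsr1 to Celsr3, Fat1 to Fat4, and Dchs1 and Dchs2. Of the 43, 37 had enough reads for a test between the groups. RNA was sequenced from fluorescent nuclei that had been sorted out of frozen cerebral cortex of juvenile mice, with 1 cortex per library. All mice carried a Cre driver that acts in GABAergic neurons, which release the inhibitory transmitter GABA, together with a Cre-dependent reporter that labels nuclei. The control group, Thra+/+, was represented by 4 libraries. The mutant group, Thra+/AMI, additionally carried an allele that, once recombined by Cre, encodes a thyroid hormone receptor that acts against the normal one, and had 3 distinct libraries out of 4 labelled. The exact age and the name of the Cre driver are not given in the sources used here, and the labels do not say how completely the allele recombined. The question the comparison addresses is how RNA levels in GABAergic nuclei differ when the thyroid hormone receptor encoded by Thra is impaired in these neurons.

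Cadherins are calcium-dependent adhesion proteins of the cell surface whose outer domains bind cadherins on neighbouring cells, and in neurons they take part in cell sorting, axon targeting and synapse formation. Type I and type II cadherins bind catenins inside the cell, which link them to actin, while type II cadherins are expressed in different combinations by different neuron types. The delta protocadherins signal through other partners, including the WAVE complex that drives actin branching. Celsr proteins work in planar cell polarity with Frizzled and Vangl proteins, and Fat and Dchs proteins bind each other as giant cadherins that feed into the Hippo pathway. The thyroid hormone receptor is a transcription factor that binds DNA near its target genes, classically at repeats of the letters AGGTCA.

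The libraries held between 10747169 and 13804734 counts, with 21881 to 22684 genes with at least 1 count. The table of mutant 10 held the same counts as that of mutant 7 in all 21975 genes with a count, so both were counted as 1 sample. Thra itself was at 107.8, 125.3, 118.6 and 105.3 CPM (a gene's counts divided by the library's normalized size and scaled) in controls 1 to 4, and the values of mutants 6, 7 and 8 were 77.5, 96.1 and 88.5 CPM, a log2 fold change of -0.39 with a standard error (SE) of 0.11 and an adjusted p of 0.0543, which does not check the labels because counts per gene do not separate the alleles. The GABAergic markers were present in every library, with Gad1 at 519 to 659 CPM in controls and 585 to 663 in mutants, while the excitatory marker Slc17a7 was at 46.8 to 94.3 and 47.7 to 84.1 CPM. The values show that reads were counted over whole gene spans, introns included: none of 1287 protein-coding genes lying wholly inside another gene had a count, against 75.3% of genes that shared no base with another. Cdh15, a muscle cadherin that lies wholly inside Gm20388, was at 0 in every library for that reason, and nothing can be said of its level.

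Controls 1 and 4 stood at opposite ends for long genes, and many cadherin genes are long. The median of the log2 ratio of control 4 to control 1 was 0.95 over the 23 tested members with a span over 100 kb, against 0.70 over all 2529 tested genes of that length. It was -0.05 over the 12 members between 10 and 100 kb and -0.06 over the 2 members below 10 kb, where the corresponding medians of all genes were 0.01 and -0.44. Control 1 was the lowest and control 4 the highest control in 14 of the 23 long members (60.9%) and in 2 of the 14 shorter ones (14.3%), close to the 66.9% and 13.5% of all tested genes of those lengths. On the log2 scale the spread among controls exceeded that among mutants in 31 of the 37 tested members. All tested genes showed a wider spread in controls too. Their median SD as a percentage of the mean CPM was 18.02% in controls and 11.21% in mutants, against 24.35% and 8.0% over the members. Results for long members are therefore given below also with an offset for gene length and without these libraries where that changes a call, and the part of this difference between libraries in other results was not tested. Control 4 also held only 4 counts from 4 genes of the Y chromosome, against 5482 or more in each of controls 1 to 3. Mutant 8 held 3. The part of this in the difference between controls 1 and 4 was not tested.

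**Figure D1:**
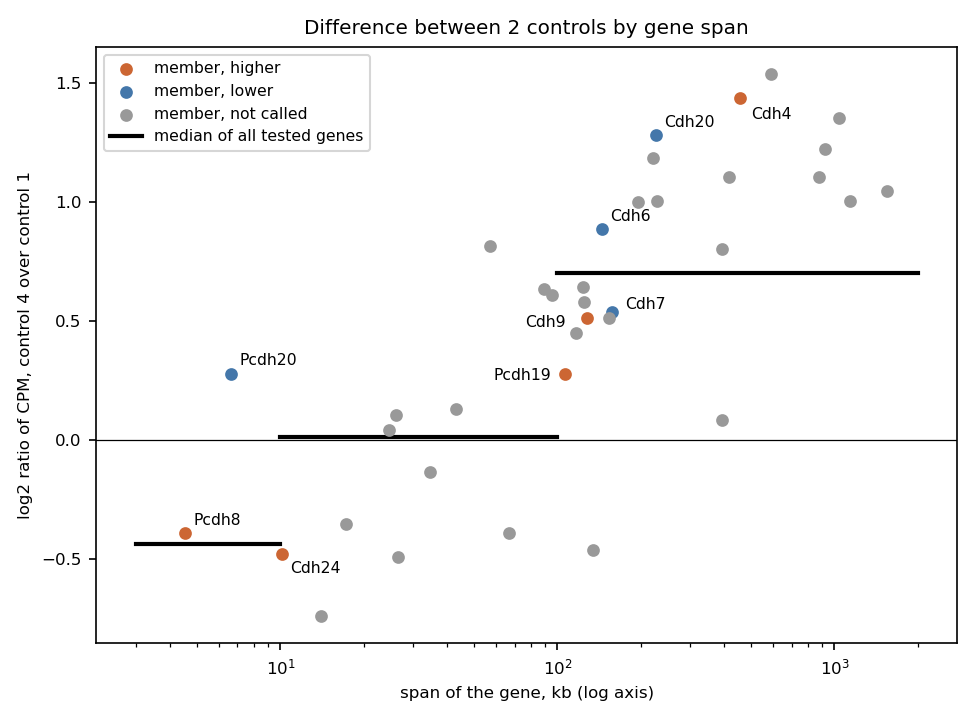
Each point is 1 of the 37 tested members, with its genomic span in kb on a log axis and the log2 ratio of its CPM in control 4 to that in control 1; colours mark the called members and black lines the medians of all tested genes in 3 classes of span. Members over 100 kb have a median of 0.95, whereas the 12 members between 10 and 100 kb have a median of -0.05.

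Cadherin genes moved in both directions in the mutants. By edgeR's quasi-likelihood test with Benjamini-Hochberg adjustment over the 16448 genes tested, calling an adjusted p under 0.05, 9 of the 37 tested members (24.3%) were called, against 9.42% of all genes. The 5 that were higher in mutants were Cdh4, Cdh9, Cdh24, Pcdh8 and Pcdh19, and the 4 that were lower were Cdh6, Cdh7, Cdh20 and Pcdh20, while 4.63% and 4.78% of all genes were called in each direction. The other 28 did not pass the threshold. The members are longer and better counted than all tested genes, with median spans of 128 and 23.8 kb and median levels of 67.2 and 20.4 CPM. Among genes over 100 kb, 26.1% of the members and 13.3% of all tested genes were called. At 100 kb or less the shares were 21.4% and 8.71%. The members were chosen with earlier results of these data known, so these shares are a description and not a test. The CPM values of the groups did not overlap in 12 members (32.4%), against 22.0% of all genes. The median log2 fold change over the members was 0.03 and that over all genes -0.01, whereas the median size of the change without its sign was 0.35 for the members and 0.21 for all genes. In bulk nuclei, fewer cells of a type and less RNA per cell cannot be told apart. Type II cadherins held 5 of the calls, delta2 protocadherins 2, and the type I cadherins and other protocadherins 1 each.

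**Figure D2:**
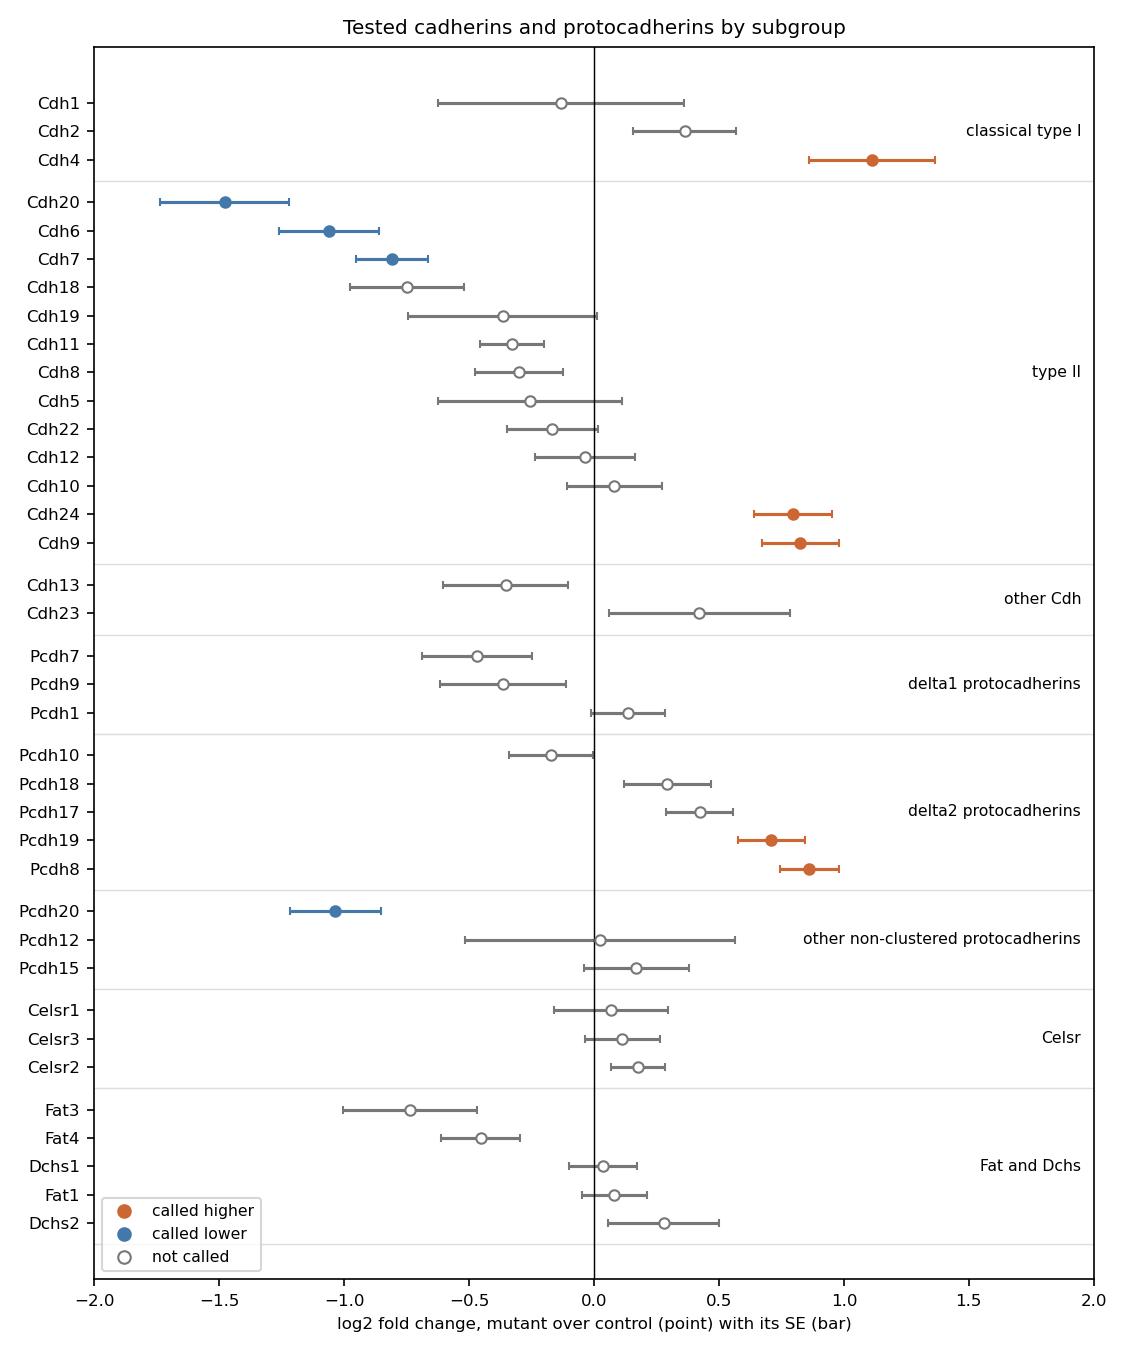
Points give the log2 fold change of mutants over controls for the 37 tested members, grouped by subfamily, with bars of 1 SE from edgeR; called members are coloured by direction. Calls lie between -1.48 for Cdh20 and 1.11 for Cdh4, and 28 members were not called.

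Among the classical type I cadherins, Cdh4 (R-cadherin, a homophilic adhesion protein of the nervous system) rose. Cdh4 spans 457 kb at chr2:179442431-179899373 on the forward strand (build GRCm38, as are all positions here). It was at 49.96, 73.8, 82.8 and 135 CPM in controls 1 to 4 and at 218, 164 and 172 CPM in mutants 6, 7 and 8. All 3 mutants lay above the highest control, control 4, which is also the library that was high for long genes. The means were 85.5 ± 36.1 (SD, n = 4) and 185 ± 28.9 (SD, n = 3), a log2 fold change of 1.11 with an SE of 0.25 and an adjusted p of 0.0154 in edgeR. The call was lost without control 2 (adjusted p 0.0612), without mutant 6 (0.0923) and when genes of low count were not filtered out (0.1805). Cdh2 (N-cadherin), the widespread neural cadherin, was at 132 ± 45.1 CPM in controls and 169.8 ± 1.35 CPM in mutants, with a log2 fold change of 0.36, an SE of 0.21 and an adjusted p of 0.338. Without control 4 it was called higher (0.61, edgeR adjusted p 0.00478), but not without control 1 (0.21, adjusted p 0.4444). Within each library, the ratio of Cdh4 to Cdh2, which both span over 100 kb, was 0.586 to 0.699 in controls and 0.962 to 1.29 in mutants, so the groups did not overlap in it. Because Cdh4 was called and its own CPM did not overlap, this ratio is not further evidence. Cdh1 (E-cadherin), the epithelial member, was near 1 CPM in both groups (0.922 ± 0.462 and 0.843 ± 0.364), and Cdh3, a placental and epithelial cadherin, had 1 to 5 counts per library and was not tested.

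Type II cadherins split into members that rose and members that fell. Cdh9 and Cdh24 rose, Cdh6, Cdh7 and Cdh20 fell, and the other 8 of the 13 did not pass the test. Cdh9, known for a role in forming specific synapses, spans 128 kb at chr15:16728756-16857094 on the forward strand. It was at 159, 245, 208 and 226 CPM in controls 1 to 4 and at 387, 401 and 325 CPM in mutants 6, 7 and 8. Each mutant was higher than each control. The means were 209 ± 37.0 CPM (SD, n = 4) and 371 ± 40.3 CPM (SD, n = 3), with a log2 fold change of 0.83, an SE of 0.16 and an adjusted p of 0.00545 in edgeR. Cdh24 is the shortest type II gene called here, with a span of 10.1 kb at chr14:54631231-54641364 on the reverse strand. Its values were 21.9, 18.9, 21.4 and 15.7 CPM in controls and 38.0, 35.5 and 28.1 CPM in mutants. The groups did not overlap, with means of 19.5 ± 2.86 and 33.8 ± 5.12 CPM, and the log2 fold change in edgeR was 0.80 with an SE of 0.16 and an adjusted p of 0.0072. Without mutant 6 the log2 fold change was 0.70 and the adjusted p 0.0542.

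Of the 3 type II cadherins that fell, Cdh20 changed most. It lies at chr1:104768529-104995481 on the forward strand. Cdh20 was at 60.1, 92.3, 72.3 and 146 CPM in controls 1 to 4 and at 39.6, 30.6 and 29.5 CPM in mutants 6, 7 and 8. Every mutant was below the lowest control, control 1, although the controls themselves differed widely. The means were 92.7 ± 37.9 and 33.2 ± 5.53 CPM, with a log2 fold change of -1.48, an SE of 0.26 and an adjusted p of 0.00357 in edgeR. With no filter on low counts the adjusted p was 0.0830 at an unaltered log2 fold change of -1.48. Cdh6, which marks particular neuron groups in the developing brain, lies at chr15:13028701-13173675 on the reverse strand. Cdh6 was at 41.8, 56.4, 42.3 and 77.2 CPM in controls and at 26.2, 26.2 and 25.8 CPM in mutants. The mutant values were nearly equal, and all lay below every control. Its log2 fold change was -1.06 with an SE of 0.20 and an adjusted p of 0.00536 in edgeR, from means of 54.4 ± 16.6 and 26.1 ± 0.269 CPM. Cdh7, a type II cadherin on the same chromosome as Cdh20, lies at chr1:109982431-110140157 on the forward strand. Cdh7 was at 196, 286, 235 and 285 CPM in controls and at 140.3, 149.6 and 139 CPM in mutants. Again the groups did not overlap. The means of 251 ± 43.3 and 143 ± 5.73 CPM gave an edgeR log2 fold change of -0.81, with an SE of 0.14 and an adjusted p of 0.00416.

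Cdh18 showed the same direction without passing the test. It spans 925 kb at chr15:22549022-23474418 on the forward strand. Its values were 121, 180.1, 155 and 282 CPM in controls 1 to 4 and 108, 102 and 119 CPM in mutants 6, 7 and 8. The highest mutant, mutant 8, was just below control 1, and control 4 was far above the other controls. The means were 184 ± 69.6 and 109.7 ± 8.78 CPM, with a log2 fold change of -0.75, an SE of 0.23, an unadjusted p of 0.00646 and an adjusted p of 0.0622 in edgeR. With an offset for genomic length the log2 fold change was -0.72, the SE 0.09 and the adjusted p 4.757e-05. Cdh18 was also called without control 1 (-0.90, adjusted p 0.00787) and without control 4 (-0.47, adjusted p 0.0241). Cdh11 was at 164 ± 24.4 CPM in controls and 130.4 ± 6.11 CPM in mutants (log2 fold change -0.33, edgeR adjusted p 0.149), and Cdh8 was at 141 ± 33.9 and 115 ± 11.8 CPM (-0.30). Neither passed the test with all 7 libraries. Without control 1 both were called lower, Cdh8 with a log2 fold change of -0.44 and Cdh11 with -0.41, each at an adjusted p of 0.0223. Cdh10 and Cdh12, neighbours of Cdh9 and Cdh18 on chromosome 15, had log2 fold changes of 0.08 and -0.04, and that of Cdh22 was -0.17. The remaining type II members were scarce: Cdh5, the cadherin of blood vessel endothelium, was at 1.67 CPM in controls and 1.38 CPM in mutants, and Cdh19, a cadherin of glial and neural crest lineages, at 1.72 and 1.32 CPM.

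The members that changed lie among type II genes that did not pass the test. Most of the 13 type II cadherins are placed in groups that bind one another preferentially: Cdh6, Cdh9 and Cdh10 form the first, Cdh8, Cdh11 and Cdh24 the second, and Cdh7, Cdh12, Cdh18, Cdh20 and Cdh22 the third, while Cdh5 and Cdh19 are placed in none of these here. In the first group Cdh9 rose, Cdh6 fell and Cdh10 was not called. In the second only Cdh24 was called, and in the third Cdh7 and Cdh20 fell. As a share of the summed CPM of the 13 type II genes in each library, Cdh9 was 11.6% to 15.3% in controls and 24.8% to 29.6% in mutants. Cdh7 was 14.7% to 17.8% in controls and 10.02% to 11.05% in mutants, and Cdh20 was 5.32% to 7.496% and 2.25% to 2.83%. The share of Cdh18 was 10.9% to 14.5% in controls and 7.51% to 9.07% in mutants. In all, the shares of 7 of the 13 genes did not overlap between the groups. Besides these 4 they were Cdh6 (3.11% to 3.97% and 1.88% to 1.96%), Cdh24 (0.806% to 1.97% and 2.14% to 2.71%) and Cdh10 (11.3% to 12.96% and 13.5% to 14.5%). Cdh10 was not called and its log2 fold change in CPM was 0.08: a share also moves when the other genes of the sum do. In CPM itself the groups did not overlap in 6 of the 13 type II genes (46.2%), against 22.0% of all genes. The summed CPM itself was 1113 to 1947 in controls and 1313 to 1400 in mutants, with controls 1 and 4 on either side of the mutants. Cdh6 and Cdh9 have similar spans, 145 and 128 kb. The ratio of Cdh9 to Cdh6 in CPM within a library was 2.93 to 4.91 in controls and 12.6 to 15.3 in mutants. That of Cdh4 to Cdh20 was 0.799 to 1.14 in controls and 5.37 to 5.84 in mutants. Both pairs join a member called higher with a member called lower. The separation of these ratios therefore follows from the calls and is not further evidence.

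**Figure D3:**
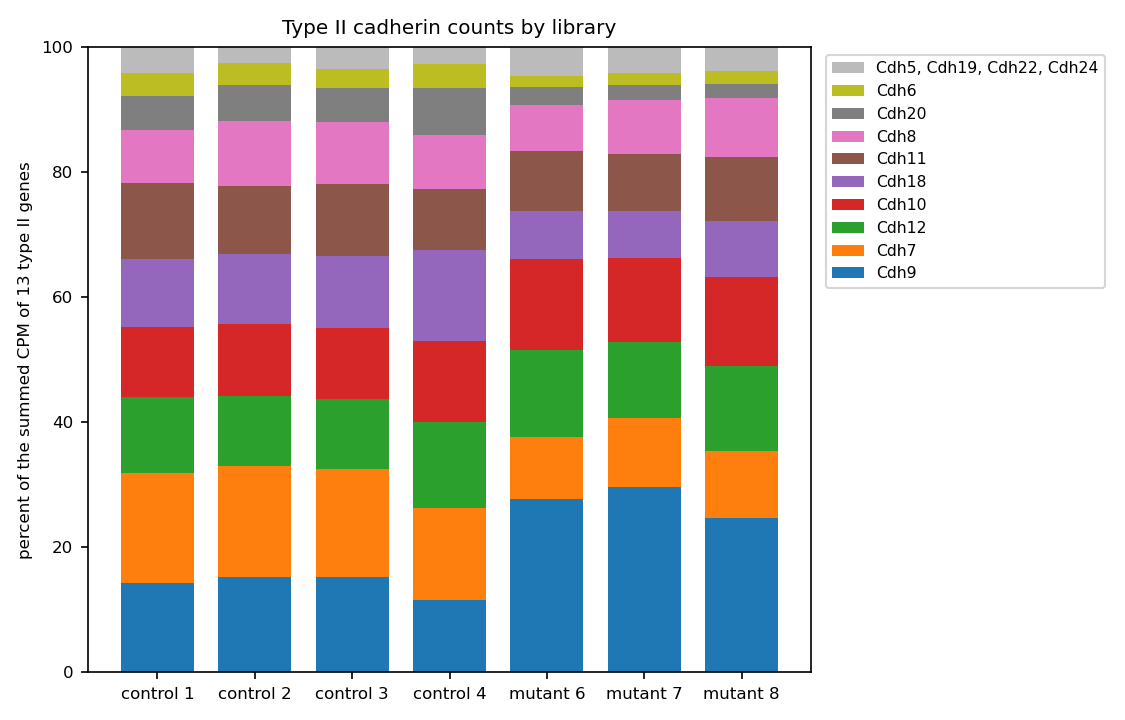
Stacked bars give the percentage that each of the 13 type II cadherins contributed to their summed CPM in each of the 7 libraries. Cdh9 takes 24.8% to 29.6% in the 3 mutants and 11.6% to 15.3% in the 4 controls, while Cdh7, Cdh18 and Cdh20 take smaller shares in the mutants.

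Cdh6 and Cdh9 lie on chromosome 15 as part of a run of type II genes with Cdh10, Cdh12 and Cdh18, and they moved in opposite directions, so the DNA at their starts is shown. Promoter windows came from RefSeq (build GRCm38.p6) and ran from 250 bases before to 50 after each transcript start, with most of the transcribed part left out below. They were found for 29 of the 43 members, and for 8 of the 9 called ones (none for Cdh4). In a search of both strands, the longest run shared by any pair of called members was the 15 bases marked in capitals in the first 2 sequences, which no gene other than Cdh6 and Cdh9 held among 32851 windows. Its first base lies 18 bases before the RefSeq start of Cdh6 and 209 bases before that of Cdh9. The GENCODE start of Cdh9, used for the gene's position above, lies further upstream, and counted from the GENCODE starts the distances are 18 and 50 bases. The sequences are for Cdh6 chr15:13173656-13173925 on the reverse strand and for Cdh9 chr15:16728665-16728780 on the forward strand. The third is from Cdh18, chr15:23036213-23036479 on the forward strand, at an internal transcript start, where capitals mark the receptor's letters AGGTCA read from the opposite strand.
Cdh6: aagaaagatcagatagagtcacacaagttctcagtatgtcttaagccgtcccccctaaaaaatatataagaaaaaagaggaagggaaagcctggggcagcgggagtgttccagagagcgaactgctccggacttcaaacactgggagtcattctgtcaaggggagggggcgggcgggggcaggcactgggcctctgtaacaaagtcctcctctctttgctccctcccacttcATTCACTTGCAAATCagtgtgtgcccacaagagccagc
Cdh9: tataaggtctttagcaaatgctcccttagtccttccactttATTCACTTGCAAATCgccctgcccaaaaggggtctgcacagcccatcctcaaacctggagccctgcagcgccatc
Cdh18: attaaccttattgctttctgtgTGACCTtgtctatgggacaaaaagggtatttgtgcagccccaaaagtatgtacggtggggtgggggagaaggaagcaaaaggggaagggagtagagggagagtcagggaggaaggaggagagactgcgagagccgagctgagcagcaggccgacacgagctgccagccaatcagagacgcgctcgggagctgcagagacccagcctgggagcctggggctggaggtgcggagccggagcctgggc
The run AGGTCA was present in 16.3% of all windows, on either strand, and in the windows of Cdh18, Fat1 and Fat2, none of which was called. The direct repeat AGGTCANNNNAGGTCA occurred in 0.0152% of windows and in none of the members. A match is a description of the letters, and these windows leave out distant and intronic DNA.

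Other cadherins without the classical catenin-binding tail did not pass the test. Cdh13 (T-cadherin), which is anchored to the membrane by a lipid and also marks some cortical neurons, was at 521 ± 197 CPM in controls and 408 ± 54.3 CPM in mutants over a span of more than 100 kb, with a log2 fold change of -0.35 and an SE of 0.25. Cdh23, the hair-cell tip link cadherin, was at 3.59 and 4.84 CPM with a log2 fold change of 0.42. Cdh16, Cdh17 and Cdh26, cadherins of kidney, gut and other epithelia, had 0 to 5 counts per library and were not tested.

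**Figure D4:**
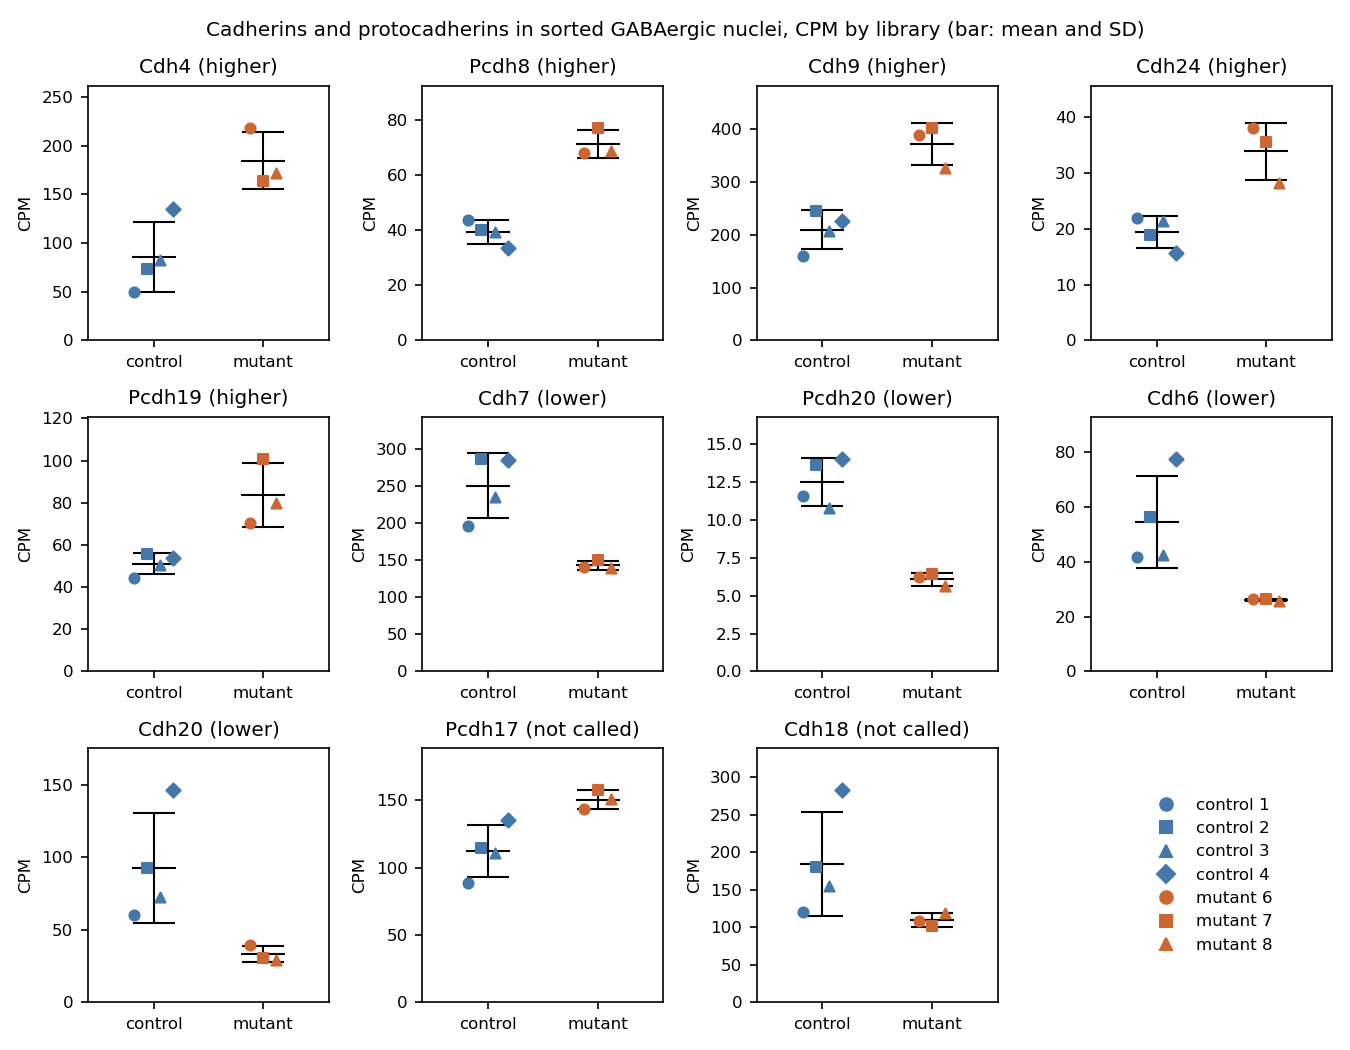
Points are the CPM of each library for the 9 called members and for Cdh18 and Pcdh17, with the mean and SD of the 4 controls and the 3 mutants. The groups do not overlap in any of the 11 genes, which for the uncalled Cdh18 and Pcdh17 was a condition for being shown. The controls spread more widely than the mutants for Cdh6, Cdh7, Cdh18 and Cdh20.

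Among the delta2 protocadherins, whose tails can bind the WAVE complex, Pcdh8 and Pcdh19 rose. Pcdh8 (arcadlin) is induced by neuronal activity and takes part in the removal of cadherins from synapses. It is a short gene, 4.54 kb at chr14:79766775-79771312 on the reverse strand, of which 31.0% is shared with Gm9748. It was at 43.9, 40.2, 39.4 and 33.4 CPM in controls 1 to 4 and at 68.2, 77.0 and 68.7 CPM in mutants 6, 7 and 8. All mutants were far above all controls, with means of 71.3 ± 4.94 (SD, n = 3) and 39.2 ± 4.33 CPM (SD, n = 4). Its log2 fold change was 0.86 with an SE of 0.12, and its adjusted p of 0.000734 in edgeR was the smallest among the members. Its RefSeq window, chr14:79771293-79771562 on the reverse strand, is shown as that of the member with the smallest p, with a TATAAA box in capitals whose first base lies 30 bases before the start.
Pcdh8: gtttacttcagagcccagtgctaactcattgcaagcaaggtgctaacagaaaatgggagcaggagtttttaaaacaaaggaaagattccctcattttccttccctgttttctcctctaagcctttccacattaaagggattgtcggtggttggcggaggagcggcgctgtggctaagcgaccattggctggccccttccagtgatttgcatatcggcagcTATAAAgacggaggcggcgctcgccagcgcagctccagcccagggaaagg
TATAAA was present on either strand in 13.6% of all windows, and among the members in those of Pcdh8 and Pcdh15.

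Pcdh19, an X-linked protocadherin whose human counterpart is mutated in an epilepsy that mainly affects girls, lies at chrX:133582860-133688987 on the reverse strand. Pcdh19 was at 44.4, 55.8, 50.5 and 53.9 CPM in controls 1 to 4 and at 70.6, 101 and 79.9 CPM in mutants 6, 7 and 8. The groups did not overlap, and mutant 7 was the highest. The means were 51.2 ± 4.997 and 83.7 ± 15.3 CPM, with a log2 fold change of 0.71, an SE of 0.13 and an adjusted p of 0.0057 in edgeR. Counts from 4 genes of the Y chromosome came to 5482 or more in each of controls 1 to 3, to 6612 in mutant 6 and to 5094 in mutant 7, but to 4 in control 4 and 3 in mutant 8. Pcdh19 in control 4 and in mutant 8 lay within the range of the other libraries of its group. Pcdh17, a protocadherin of axons and presynaptic sites at chr14:84443563-84539002 on the forward strand, was at 88.5, 115, 111 and 135 CPM in controls and at 143, 157 and 151 CPM in mutants. These groups did not overlap either, but the log2 fold change of 0.42 (SE 0.13) had an unadjusted p of 0.00816 and an adjusted p of 0.0725 in edgeR. With the length offset the adjusted p was 0.00274 at the same log2 fold change of 0.42, and without control 4 it was 0.00484 at 0.52. Pcdh10 and Pcdh18, the remaining delta2 members, had log2 fold changes of -0.17 and 0.29 and did not pass the test.

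None of the 3 delta1 protocadherins under the naming rule (Pcdh1, Pcdh7 and Pcdh9) was called, while Pcdh11x, the delta1 gene outside that rule, fell and is given with the other superfamily genes. Pcdh9 had the most counts of all members, over a long span, and gave 15135 to 34882 counts per library, with 1902 ± 659 CPM in controls and 1476 ± 155 CPM in mutants, a log2 fold change of -0.37 with an SE of 0.25 and an adjusted p of 0.448 in edgeR. It made up 28.9% to 34.0% of the summed CPM of the 43 members in controls and 26.2% to 28.6% in mutants. Pcdh7 was at 476 ± 158 and 344 ± 22.1 CPM, with -0.47 as its log2 fold change, an SE of 0.22 and an adjusted p of 0.232, and Pcdh1 at 18.3 and 20.1 CPM (0.13). Pcdh7 and Pcdh9 span over 100 kb and were called lower with the length offset, with log2 fold changes of -0.45 and -0.36 and adjusted p-values of 0.00121 and 0.00682. Pcdh7 was also called without control 1 (-0.61, adjusted p 0.0306), whereas Pcdh9 was not (-0.50, adjusted p 0.1421).

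Pcdh20 fell, whereas Pcdh12 and Pcdh15 did not pass the test. Pcdh20 is a short gene of 6.65 kb at chr14:88464743-88471396 on the reverse strand, with 70 to 181 counts per library. It was at 11.6, 13.7, 10.8 and 14.0 CPM in controls 1 to 4 and at 6.25, 6.42 and 5.62 CPM in mutants 6, 7 and 8. Every mutant was lower than every control, with means of 12.5 ± 1.57 and 6.09 ± 0.419 CPM, a log2 fold change of -1.04, an SE of 0.18 and an adjusted p of 0.00374 in edgeR. Pcdh8 and Pcdh20, both short and on chromosome 14, moved in opposite directions. The ratio of Pcdh8 to Pcdh20 in CPM was 2.39 to 3.79 in controls and 10.9 to 12.2 in mutants. That separation follows from the calls of both genes and is not further evidence. Pcdh15, a partner of Cdh23 in hair cells, was at 446 and 501 CPM (log2 fold change 0.17), and Pcdh12, a protocadherin of endothelium, at 1.25 and 1.27 CPM (0.03).

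None of the 3 Celsr genes or the 5 tested Fat and Dchs genes was called. Celsr3, needed for the growth of forebrain axon tracts, was the most abundant of the Celsr genes at 192 ± 33.2 CPM in controls and 208 ± 24.6 CPM in mutants, with a log2 fold change of 0.11 and an SE of 0.15. Celsr2 had 65.2 ± 4.36 and 73.7 ± 6.90 CPM (0.18, SE 0.11) and Celsr1, which is mainly a gene of epithelia and progenitors, 4.42 ± 0.753 and 4.64 ± 0.245 CPM (0.07, SE 0.23). Fat3, which shapes the dendrites of some retinal interneurons, was at 129, 232, 194 and 375 CPM in controls 1 to 4 and at 150.2, 129.8 and 138 CPM in mutants 6, 7 and 8. Control 1 lay at the mutants' level and the other controls above it, and the log2 fold change of -0.74 (SE 0.27) had an adjusted p of 0.118 in edgeR. Fat4 was at 25.5, 40.5, 32.8 and 38.1 CPM in controls and at 24.8, 24.9 and 25.2 CPM in mutants, with control 1 only just above the mutants, a log2 fold change of -0.45 and an adjusted p of 0.103. Without control 1 both were called lower, Fat3 with -0.93 (adjusted p 0.0112) and Fat4 with -0.57 (adjusted p 0.00859). Fat1 (0.08), Dchs1 (0.04) and Dchs2 (0.28), partners in the same giant-cadherin system, did not pass the test, and Fat2, a cerebellar member, had 1 to 8 counts per library and was not tested.

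How many long members were called depended on how the difference between controls was handled. With an offset that removes each library's trend with genomic length, 18 of 37 members were called (48.6%) against 16.7% of all genes. All 9 members called without the offset were among them, and Cdh2 and Pcdh17 were added as higher and Cdh11, Cdh13, Cdh18, Fat3, Fat4, Pcdh7 and Pcdh9 as lower. The fold changes themselves moved little: for Fat3 the log2 fold change was -0.74 without and -0.69 with the offset, while the SE went from 0.27 to 0.10. For Cdh13 they were -0.35 and -0.33, with an SE of 0.25 and then 0.09 and an adjusted p of 0.0144 with the offset. Among the 23 members over 100 kb, 6 were called without the offset and 14 with it. Without the offset that is 26.1%, against 13.3% of all tested genes of that length. The share of all genes of that length with the offset was not computed. Leaving out control 1 alone gave 15 called members of 37 (40.5%), against 12.5% of all genes. Leaving out control 4 gave 12 (32.4%) against 14.5%, and leaving out both gave 17 (45.9%) against 16.7%. Without control 2, 8 of 36 tested members were called (22.2%), and without control 3, 9 of 36. The shares of all genes were 6.44% and 6.25%. Without mutants 6, 7 and 8 in turn, 7, 9 and 9 of 37 members were called (18.9%, 24.3% and 24.3%). For all genes these shares were 4.55%, 4.35% and 4.86%. A surrogate variable gave 19 of 37 members (51.4%) against 20.5% of all genes. Limma-voom with quality weights gave 15 (40.5%) against 18.4%, and DESeq2 10 (27.0%) against 12.1%. RLE size factors gave 9 of 37 members (24.3%) against 9.43% of all genes. A minimum mean of 1 CPM gave 9 of 36 against 9.84%, and no filter on low counts 8 of 42 (19.0%) against 6.28%. Cdh6, Cdh7, Cdh9, Pcdh8, Pcdh19 and Pcdh20 were called in the main test and in all 15 alternative settings.

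**Figure D5:**
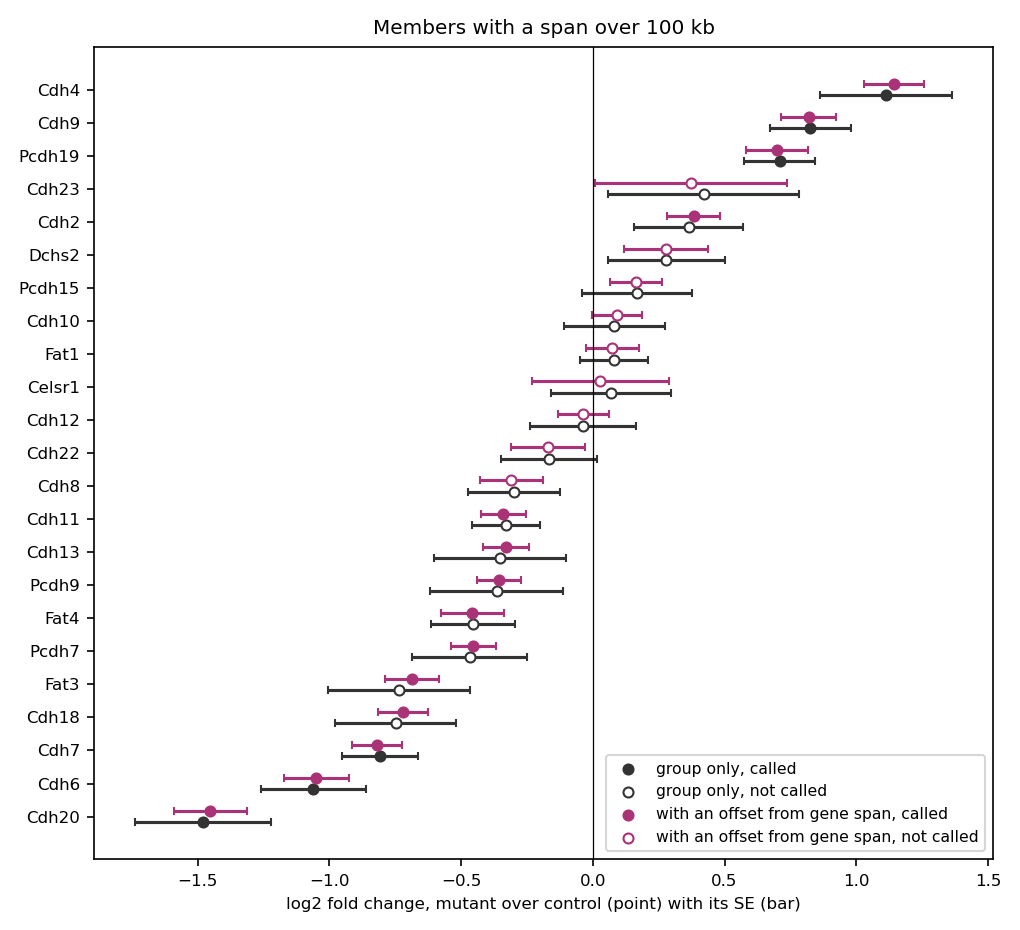
For the 23 members with a span over 100 kb, points give the log2 fold change of mutants over controls with bars of 1 SE, fitted with the groups alone and with an offset for genomic length in each library. The SE of Fat3 is 0.27 in the first fit and 0.10 in the second, and the number of called members is 6 and 14. In the first fit 13.3% of all tested genes over 100 kb were called. That share was not computed for the second fit, in which 16.7% of tested genes of any length were called, against 9.42% in the first.

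Levels were compared between genes per 100 kb of span not shared with another gene, because the counts cover introns. On this scale Pcdh8 was the highest member in controls, at 1252 CPM per 100 kb, followed by Celsr3 at 724 ± 125. Below them, Dchs1 (287 ± 37.4), Celsr2 (264 ± 17.6), Pcdh10 (234 ± 56.9), Pcdh9 (219.9 ± 76.2), Cdh24 (200.4 ± 29.4), Cdh9 (195 ± 34.4) and Pcdh20 (188 ± 23.6) each differed from the next by less than the larger of their SDs over the 4 controls. The place of Dchs1 rests on a small unshared part, because 73.1% of its span is shared with Gm15645. Over its whole span it was at 77.3 CPM per 100 kb in controls. Pcdh10, with 33.3% of its span shared, was at 156 on that scale. In mutants the level of Pcdh8 was 2275 CPM per 100 kb, those of Cdh24 and Cdh9 were 348 ± 52.7 and 345 ± 37.5, and that of Pcdh20 was 91.6 ± 6.29. Per kilobase of merged exons, Pcdh9 was highest in controls (280.5 CPM per kb), ahead of Cdh9 (59.2 ± 10.5) and Cdh13 (46.4 ± 17.5), so the order of the members depends on the length used.

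Partners and relatives of these proteins were called in 11 of 53 tested cases over the 5 lists (20.8%), against 9.42% of all genes. All 5 lists were chosen with earlier results of these data known, so their shares are a description and not a test. Of 14 catenins and junction partners, 3 rose and none fell (21.4%), with a median log2 fold change of -0.01. Jup (plakoglobin) went from 8.41 ± 0.552 to 14.9 ± 2.12 CPM (log2 fold change 0.82, SE 0.17, edgeR adjusted p 0.0088), though the call was lost without mutant 7 (0.0634). Arvcf, a catenin of the p120 family that binds the membrane-proximal part of classical cadherins, went from 61.2 ± 3.93 to 87.4 ± 2.16 CPM (0.51, SE 0.10, 0.00631). Afdn (afadin), which couples nectins to actin, went from 221 ± 18.1 to 312 ± 21.6 CPM (0.50, SE 0.12, 0.0213) and was not called without control 3 or any 1 of the 3 mutants, with adjusted p-values up to 0.117. The other 11, which include the alpha and beta catenins, ranged from -0.44 to 0.39. Of the 9 WAVE complex genes only Cyfip1 was called (11.1%), near the share of all genes, at 137 ± 5.14 and 178 ± 8.04 CPM (0.38, SE 0.10, 0.0337). That call was lost without any 1 of controls 2 and 3 and mutants 6, 7 and 8, with adjusted p-values up to 0.153.

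Of 10 planar polarity partners of the Celsr proteins, 2 were called, against 9.42% of all genes. Ankrd6 (diversin) rose by 0.61 on the log2 scale (SE 0.13, edgeR adjusted p 0.0115), between means of 21.1 ± 2.02 and 32.2 ± 2.52 CPM, although not without mutant 6 (0.0730). Fzd6, a Frizzled receptor, fell from 6.66 ± 1.25 to 3.58 ± 0.665 CPM (-0.90, SE 0.24, 0.0368), a call that did not survive leaving out any 1 of the libraries other than control 4, with adjusted p-values up to 0.174. Of the 10 tested genes of the Fat, Dchs and Hippo list, 1 was called (10.0%), near the share of all genes. It was Fjx1, the mouse four-jointed gene, related to the fly kinase that modifies Fat and Dachsous, which rose from 27.5 ± 5.21 to 54.6 ± 4.69 CPM (0.99, SE 0.15, 0.0014) and was called in every setting run. The Hippo genes in that list, including Yap1, Tead1 and Lats1, ranged with the rest from -0.27 to 0.36.

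Other cadherin superfamily genes outside the naming rule gave 4 calls among 10 tested (40.0%, against 9.42% of all genes). This list too was chosen with earlier results of these data known. Pcdh11x, an X-linked delta1 protocadherin, fell from 186 ± 50.4 to 86.4 ± 1.59 CPM (log2 fold change -1.10, SE 0.18, edgeR adjusted p 0.00265). The desmosomal cadherin Dsc2 rose from 7.23 ± 2.00 to 21.1 ± 1.89 CPM (1.54, SE 0.21, 0.000622). Both were called in every setting run. Dsg2, another desmosomal cadherin, rose from 6.41 ± 1.72 to 11.2 ± 1.49 CPM (0.81, SE 0.23, 0.0489) and Cdhr1, a photoreceptor cadherin, from 1.35 ± 0.398 to 3.77 ± 0.390 CPM (1.48, SE 0.30, 0.00819). Neither was called without mutant 6, where the adjusted p of Cdhr1 was 0.0508, and Dsg2 was also lost without control 2, control 3, mutant 7 or mutant 8, with adjusted p-values up to 0.185.

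Marker genes of some interneuron classes also differed between the groups. Summed CPM of the parvalbumin list was 671.5 to 850.1 in controls and 290.3 to 344.5 in mutants, with 3 of its 4 genes lower. Kcnc1 made up most of that sum and went from 517 ± 88.2 to 195 ± 30.1 CPM. Pvalb went from 40.9 ± 5.90 to 1.81 ± 0.681 CPM and Syt2 from 62.2 ± 15.7 to 13.7 ± 1.65 CPM. Tac1 of the same list was at 105.0 and 104.7 CPM (log2 fold change -0.0044) and was not called. Summed CPM of the somatostatin list was 434.7 to 544.3 in controls and 824.1 to 1039.4 in mutants, with 3 of 4 genes higher, among them Sst with a log2 fold change of 0.84. The general GABAergic list (2359 to 2635 in controls and 2271 to 2721 in mutants) and the Lamp5 list (977.7 to 1126.7 and 989.7 to 1278.7) overlapped between the groups, as did the Vip list (181 to 342.6 and 214.7 to 237.2). Within those lists Tac2 rose (log2 fold change 1.05), and Crh (-0.74) and Npy (-0.64) fell. Among other cells, the glutamatergic, oligodendrocyte, astrocyte, microglial and vascular lists also overlapped, at 76.7 to 143, 155.9 to 199.4, 39.0 to 66.8, 12.3 to 16.4 and 61.9 to 166.3 CPM in controls and 81.7 to 134.7, 170.4 to 204.2, 44.1 to 49.8, 15.03 to 19.8 and 62.7 to 94.3 CPM in mutants. In the oligodendrocyte list Mog rose, from 9.51 to 14.3 CPM in controls to between 18.3 and 23.1 CPM in mutants. The list for striatal projection neurons did not overlap, at 76.1 to 123.3 CPM in controls and 129.9 to 147.5 CPM in mutants, with only Rgs9 of its 5 genes called (higher, 42.4 to 74.2 CPM in controls and 96.1 to 105 CPM in mutants). The log2 fold changes of Drd1, Ppp1r1b and Adora2a were 0.0050, 0.03 and 0.02, and that of Gpr6 was -0.74 (adjusted p 0.346). Dlx1, Gfap and P2ry12 were at 0 in every library and lie wholly inside the span of another gene. The part of these cell classes in the cadherin results was not tested.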

How the data were processed

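Counts per gene were deposited for 8 samples as whole numbers. Bowtie2 2.5.3 and the builds mm10 and GRCm38 are named per the submitters' processing notes; the counting program is not given in the sources used here. Libraries were SMART-Seq v4, so PCR copies are not told apart, per the labels' protocols. The members and all gene lists were chosen with earlier results of these data known. The table of mutant 10 repeated that of mutant 7 and was left out. The labels tie each library to 1 cortex, so each was taken as 1 animal.

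Genes passing edgeR's filterByExpr (16448) were tested with edgeR 4.0.16 (R 4.3.3), TMM factors and the robust quasi-likelihood test, with Benjamini-Hochberg adjustment over all of them; SE is the log2 fold change divided by the square root of F. CPM uses TMM library sizes. Alternatives were RLE size factors, DESeq2 1.42.0, limma 3.58.1 voom with quality weights, other filters, a length offset, 1 surrogate variable (sva 3.50.0), and fits without single libraries or without controls 1 and 4. Scripts were tested on simulated data. Members called, or not called but with groups that do not overlap and an unadjusted p under 0.01, were given in full. Promoter letters are from RefSeq.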

Additional observations from a re-analysis of the deposited data

Results flagged for a closer look

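Fat1 in the controls was set apart by 1 library: control 1 was at 35.9 CPM and the other 3 controls lay between 48.4 and 49.1 CPM, a gap of 0.944 of the controls' range and past Dixon's critical value for 4 samples. This was 1 of 37 values examined, where chance gives about 1.85 such cases. Fat1 spans over 100 kb, and control 1 was also low for long genes in general. The part of that difference in this value was not tested.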

How the results depend on the processing

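The number of called members, 9, was 15 with limma-voom, 18 with the length offset, 19 with 1 surrogate variable and 17 without controls 1 and 4, and 7 to 15 when 1 library was left out (15 without control 1). Members higher numbered 5, and 3 to 7 without 1 library (3 without mutant 6). Members lower numbered 4, 8 with limma-voom, 11 with the offset, 12 with the surrogate variable, 10 without controls 1 and 4 and 4 to 10 without 1 library (10 without control 1). Of all genes, 1549 were called, 3024 with limma-voom, 2753 with the offset, 3379 with the surrogate variable, 2778 without controls 1 and 4 and 734 to 2347 without 1 library (mutants 6, 7 and 8 left out in turn gave 766, 734 and 816, control 3 gave 1016, control 4 gave 2347). The cause of these shifts was not tested, although fits without a library have fewer samples.

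In the same order of offset, surrogate variable and without controls 1 and 4, the catenin list gave 6, 7 and 5 calls against 3 and the WAVE list 2, 3 and 2 against 1. The shares of all genes called rose as well, to 16.7%, 20.5% and 16.7% in that order from 9.42%. They were 18.4% with limma-voom, 12.1% with DESeq2 and 6.28% with no filter. In the main test the catenin list had 14 tested genes, the WAVE list 9, and the planar polarity and other superfamily lists 10 each. Limma-voom gave 3 WAVE calls, and no filter gave 0. The planar polarity list gave 4 with DESeq2, 4 with limma-voom, 4 with the offset and 5 with the surrogate variable against 2, and the other superfamily genes gave 7 with the surrogate variable against 4. Without 1 library the counts were 1 to 5 for catenins, 0 to 2 for WAVE, 0 to 4 for planar polarity and 2 to 5 for the other superfamily genes. In those fits 4.35% to 14.5% of all genes were called. Over the 37 members and all settings, 480 values kept direction and call, 44 gained a call, 5 lost one and 23 changed sign.

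All 23 sign changes were in uncalled members. With limma-voom the log2 fold changes were -0.0093 for Celsr1, -0.0429 for Dchs1, -0.14 for Pcdh12, 0.0837 for Cdh12 and 0.0912 for Cdh5. Without controls 1 and 4 they were -0.0553 for Celsr1, -0.051 for Dchs1, -0.0169 for Fat1, -0.10 for Cdh23, -0.31 for Pcdh12, 0.11 for Cdh12 and 0.24 for Cdh5. Without 1 library, ranges that crossed 0 were -0.0401 to 0.156 for Celsr1, -0.0141 to 0.1338 for Dchs1, -0.0131 to 0.1237 for Fat1, -0.5306 to 0.11 for Cdh1, -0.63 to 0.6024 for Pcdh12, -0.0504 to 0.2882 for Cdh10 and -0.1555 to 0.21 for Cdh12.

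The median level of tested members per kb of merged exons was 6.33 CPM in controls and 8.00 CPM in mutants. Per kb of genomic length it was 0.482 and 0.413, and per kb of unshared span, a choice made after seeing the data, 0.488 and 0.432. No paired analysis was possible because the groups share no replicate number. Members near 1 CPM (Cdh1, Cdh5, Cdh19 and Pcdh12) are limited by depth.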
